A study of Mus musculus with 14 samples.

Results

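Ube3a, Atp10a and C230091D08Rik, 3 transcripts grouped as the maternal side of the Prader-Willi/Angelman imprinted domain, were followed across brain and muscle. All probe sets that the array annotation assigned to any of these 3 symbols were taken, of 18193 genes with a probe set of their own. There were 12 such probe sets among the 45037 that remained after control probe sets were left out, 6 for Ube3a, 4 for Atp10a and 2 for C230091D08Rik. None of the 12 carried a further symbol.

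RNA was measured in brain tissue, as the sample titles call it, and in vastus lateralis muscle, which belongs to the quadriceps. The PWS-IC del mice carried a deletion of the Prader-Willi syndrome imprinting centre, the element that sets which parental copy of the domain is active, and the controls were wild-type littermates of the same age. All mice were F1 hybrids of FVB and B6. Each tissue had 3 arrays from PWS-IC del mice and 4 from wild-type mice, 14 in all, and the titles call them biological replicas, so p-values measure the spread between these arrays. The labels used here do not state the size of the deletion, the parent that passed it on, the age of the mice, or whether brain and muscle arrays share a mouse. Values are given as log2(intensity + 16), so a step of 1 is a doubling for bright probe sets and less than the true change for dim ones. Each difference subtracts the wild-type mean from the PWS-IC del mean.

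Ube3a encodes a HECT-type ubiquitin ligase, an enzyme that tags proteins for breakdown by the proteasome. In mouse and human neurons Ube3a is transcribed mainly from the maternal chromosome, while most other cell types use both copies. On the paternal chromosome of neurons, a long non-coding transcript that begins near the imprinting centre runs across Ube3a in the antisense direction and silences it. That transcript is annotated as Snhg14. Loss of maternal UBE3A causes Angelman syndrome in people, and loss of the paternally expressed genes of the domain causes Prader-Willi syndrome. Atp10a encodes a P4-ATPase, a flippase that moves phospholipids between the leaflets of membranes. C230091D08Rik is named after a RIKEN cDNA clone, and the protein or function of this transcript is not annotated in the tables used here.

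In RefSeq (assembly GRCm38.p6) Ube3a, Atp10a and Snhg14 lie on chromosome 7. The protein-coding genes there follow each other in the order Atp10a, Ube3a, Snurf and Snrpn, with 0 protein-coding genes between Atp10a and Ube3a. Ube3a is on the plus strand and Snhg14 on the minus strand, and Snhg14 covers 38101 bases, or 46.4%, of the Ube3a gene. RefSeq lists the symbol C230091D08Rik as a synonym of Snhg14, whereas the array annotation gives C230091D08Rik an Entrez number of its own that the RefSeq table does not hold. The symbols are therefore kept apart below, as the array annotation has them. The positions and strands of the probe sets within these genes were not analysed here. The starts of the genes are shown because they differ in CG content, the dinucleotide at which imprinted promoters carry DNA methylation. Each window holds 250 bases before and 50 bases after the RefSeq start, 5′ to 3′ on the strand of the gene, with every CG in capitals. The windows are chr7:59228500-59228799 on the plus strand for Ube3a, chr7:58657952-58658251 on the plus strand for Atp10a, and chr7:60450128-60450427 on the minus strand for Snhg14.
Ube3a: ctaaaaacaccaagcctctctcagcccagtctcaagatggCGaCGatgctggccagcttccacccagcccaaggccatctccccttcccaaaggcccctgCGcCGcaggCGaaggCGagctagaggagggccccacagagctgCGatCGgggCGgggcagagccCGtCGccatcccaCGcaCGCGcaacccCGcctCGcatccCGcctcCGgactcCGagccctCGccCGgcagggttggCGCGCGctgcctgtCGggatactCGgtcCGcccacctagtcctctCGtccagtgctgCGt
Atp10a: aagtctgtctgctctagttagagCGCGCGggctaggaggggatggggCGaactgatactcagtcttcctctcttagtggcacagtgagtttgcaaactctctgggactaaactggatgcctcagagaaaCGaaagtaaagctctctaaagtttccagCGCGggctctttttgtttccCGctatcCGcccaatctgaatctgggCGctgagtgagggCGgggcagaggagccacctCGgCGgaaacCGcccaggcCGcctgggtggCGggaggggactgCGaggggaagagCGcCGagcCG
Snhg14: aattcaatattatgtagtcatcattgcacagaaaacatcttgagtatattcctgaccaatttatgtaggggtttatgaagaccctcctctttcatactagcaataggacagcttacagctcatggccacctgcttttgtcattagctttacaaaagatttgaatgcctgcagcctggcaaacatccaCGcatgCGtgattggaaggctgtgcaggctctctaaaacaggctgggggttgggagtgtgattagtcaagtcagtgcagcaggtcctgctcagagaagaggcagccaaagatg
The Ube3a window held 29 CG and was 69.0% G or C, and 12.9% of the 32851 RefSeq promoter windows held as many. The Atp10a window held 20 CG at 59.3% G or C, a count that 26.5% of windows reached. The annotated start of Snhg14 held 2 CG at 45.0% G or C, and 85.9% of windows held as many. At least 1 CG was present in 94.6% of all windows. CG is its own reverse complement, so a count on one strand is also the count on the other. No methylation was measured, so the counts describe the sequence alone and do not show which of these starts, if any, is an imprinted promoter.

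The brain arrays were not uniform. On the first principal component of the brain arrays, which took 53.1% of the variance, wild type 1 stood at 93.2 and wild type 2 at 35, while the other 5 arrays lay between -37.1 and -12.4. Skeletal muscle markers had a mean level of 10.07 in brain wild type 1 and 9.39 in brain wild type 3, against 6.27 to 6.80 in the other brain arrays. Neuron markers were bright in all brain arrays, with summed intensities of 56417 to 60214 in PWS-IC del brains and 57249 to 62143 in wild-type brains. In muscle the skeletal muscle list summed to 101050 to 106254 in PWS-IC del and 105983 to 107052 in wild type. Median intensities were 142.0 to 153.4 in PWS-IC del brains, 146.5 to 170.1 in wild-type brains, 89.3 to 91.8 in PWS-IC del muscles and 88.7 to 96.4 in wild-type muscles. Precision is limited by the number of arrays. An exact permutation test of 3 against 4 arrays has 35 splits and cannot give a p below 0.0286.

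In brain, 3 of the 6 Ube3a probe sets had PWS-IC del levels 1.7 to 1.99 times those of wild type, with no overlap of the groups, and both C230091D08Rik probe sets did so at 1.69 and 1.87 times. Of all probe sets, 7.72% had groups without overlap in either direction and 3.69% in the higher direction. At 3 of 4 Atp10a probe sets the differences were negative, with overlapping groups. None of the 12 probe sets passed limma's test at an adjusted p of 0.05 over all probe sets within brain, where 0.0622% of all did. In a fit of all 14 arrays together, 2 Ube3a probe sets and 1 of C230091D08Rik did pass, among 39 called of 45037. That fit shares 1 estimate of the spread with muscle and treats brain and muscle arrays as separate samples. In muscle no member passed in either fit. Since tissue was measured in bulk, fewer cells of a type and less RNA per cell cannot be told apart in any of these values.

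The brightest Ube3a probe set was 1416680_at. Its levels were 12.47, 12.33 and 12.26 in the PWS-IC del brains, against 11.48, 11.33, 11.65 and 11.87 in the wild-type brains. All 3 PWS-IC del brains lay above all 4 wild-type brains. The means were 12.35 ± 0.11 in PWS-IC del (SD, n = 3) and 11.58 ± 0.23 in wild type (SD, n = 4), which are mean intensities of 5210.8 and 3085.5. The difference was 0.76 (SE 0.15, 95% interval 0.43 to 1.1), or 1.7-fold, with an adjusted p of 0.644 in limma and an exact two-sided permutation p of 0.0286, the smallest possible. By its unadjusted p of 7.153e-04 it ranked 46 among the 45037 probe sets. Without brain wild type 1 and 2 the difference was 0.59, and without brain wild type 1 and 3 it was 0.75.

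Ube3a 1416681_at gave a like picture. It stood at 9.27, 8.88 and 8.72 in PWS-IC del brains, against 7.67, 7.92, 8.12 and 8.31 in wild-type brains, so the groups were again apart. The difference was 0.95 (SE 0.19, 95% interval 0.52 to 1.39), or 1.94-fold, with an adjusted p of 0.644 in limma and an exact permutation p of 0.0286. Its rank by unadjusted p was 55.

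The third of the separated probe sets, Ube3a 1425206_a_at, read 9.48, 9.36 and 9.16 in PWS-IC del brains, against 7.75, 8.05, 8.74 and 8.80 in wild-type brains. Brain wild type 1 and 2 were lower than the other wild-type brains by a margin close to the gap between genotypes. The difference of 0.99 (SE 0.26, adjusted p 0.644 in limma, exact permutation p 0.0571) was 0.56 without those 2 arrays. Without brain wild type 1 and 3 it was 0.90.

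The other 3 Ube3a probe sets did not separate the genotypes. Ube3a 1416682_at read 10.38, 9.18 and 9.46 in PWS-IC del brains, against 9.14, 8.98, 9.20 and 9.36 in wild-type brains. One PWS-IC del brain, replicate 1, was well above the rest, and the difference of 0.50 (SE 0.26, adjusted p 0.644 in limma) was 0.15 without it. Ube3a 1431224_at read 8.23, 8.11 and 8.27 in PWS-IC del brains, against 8.36, 8.14, 8.20 and 7.86 in wild-type brains, a difference of 0.06 (SE 0.14, 95% interval -0.25 to 0.38). Ube3a 1445727_at read 7.41, 7.15 and 6.87 in PWS-IC del brains, against 8.11, 7.41, 7.57 and 7.10 in wild-type brains, a difference of -0.40 (SE 0.24, 95% interval -0.95 to 0.14), which was -0.19 without brain wild type 1 and 2 and -0.11 without brain wild type 1 and 3.

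The differences of the Ube3a probe sets thus had both signs, and the disagreement was tested array by array. The distance of each probe set from 1416680_at on the same array was compared between genotypes with an exact two-sided permutation test, with Benjamini-Hochberg adjustment over the 5 distances in a tissue. In brain, 1445727_at was further below 1416680_at in PWS-IC del than in wild type by 1.17 (exact p 0.0571, adjusted 0.214), and 1431224_at by 0.70 (exact p 0.0857, adjusted 0.214). The other 3 distances had exact p values of 0.257 to 0.371. In muscle, 1416682_at and 1431224_at were further below by 0.44 and 0.33, each with an exact p of 0.0286 and an adjusted p of 0.0714. No distance passed after adjustment. In muscle 1416682_at and 1431224_at had the smallest exact p that 35 splits allow, and still adjusted to 0.0714. So few differing distances cannot pass this test, and the lack of a call does not show that the probe sets agree.

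**Figure D1:**
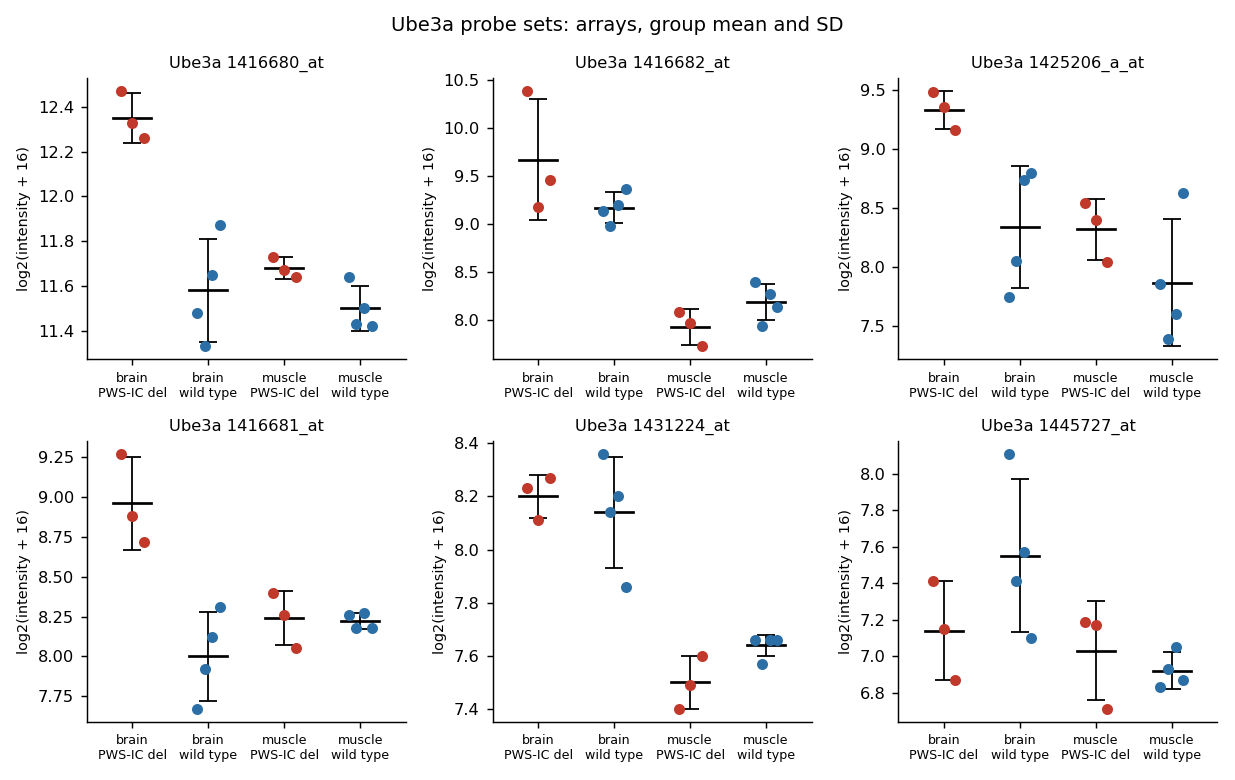
Levels of the 6 Ube3a probe sets, as log2(intensity + 16) on the vertical axes, which do not start at 0. Points are arrays (red PWS-IC del, blue wild type), the long bar is the group mean and the whiskers are 1 SD (3 PWS-IC del and 4 wild-type arrays per tissue). In brain the PWS-IC del arrays of 1416680_at, at 12.26 to 12.47, lie above the wild-type arrays, at 11.33 to 11.87, whereas 1431224_at and 1445727_at overlap.

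C230091D08Rik had the smallest unadjusted p of the members. Its brighter probe set, 1438695_at, read 11.53, 11.34 and 11.43 in PWS-IC del brains, against 10.62, 10.72, 10.64 and 10.74 in wild-type brains. The arrays of each genotype were tightly grouped and far apart, with means of 11.44 ± 0.10 in PWS-IC del (SD, n = 3) and 10.68 ± 0.06 in wild type (SD, n = 4), or mean intensities of 2760.2 and 1624.3. The difference was 0.76 (SE 0.11, 95% interval 0.52 to 1.0), or 1.69-fold. In limma its unadjusted p was 7.15e-05, rank 31, and its adjusted p 0.104, and its exact permutation p was 0.0286. It was 0.75 without brain wild type 1 and 2 and 0.71 without brain wild type 1 and 3.

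The second C230091D08Rik probe set, 1437354_at, read 10.88, 10.73 and 10.54 in PWS-IC del brains, against 9.46, 9.61, 10.02 and 10.18 in wild-type brains. The genotypes did not overlap, and brain wild type 1 and 2 were the lowest. The difference was 0.90 (SE 0.19, 95% interval 0.46 to 1.34), or 1.87-fold, with an adjusted p of 0.644 in limma and an exact permutation p of 0.0286. Without brain wild type 1 and 2 it was 0.62, and without brain wild type 1 and 3 it was 0.82.

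Atp10a was dim in both tissues, which makes its differences on this scale smaller than the true change. Its brightest probe set, 1447851_x_at, read 6.55, 6.95 and 6.39 in PWS-IC del brains, against 7.26, 7.22, 7.31 and 6.40 in wild-type brains. Brain wild types 1 to 3 lay close together above all PWS-IC del brains, while wild type 4 lay at their lower end. The difference was -0.42 (SE 0.24, 95% interval -0.98 to 0.14, adjusted p 0.644 in limma). Atp10a 1452013_at read 6.02, 6.20 and 5.89 in PWS-IC del brains, against 6.45, 6.31, 6.42 and 6.08 in wild-type brains, a difference of -0.28 (SE 0.14, adjusted p 0.644 in limma). Atp10a 1447272_s_at read 6.05, 6.15 and 5.73 in PWS-IC del brains, against 6.65, 6.60, 6.13 and 6.03 in wild-type brains, a difference of -0.38 (SE 0.19, adjusted p 0.644 in limma). The groups of both overlapped. Without brain wild type 1 and 2 these 3 differences were -0.22, -0.21 and -0.10, and without brain wild type 1 and 3 they were -0.18, -0.16 and -0.34. The dimmest, Atp10a 1447273_x_at, averaged 5.39 ± 0.07 in PWS-IC del (SD, n = 3) and 5.37 ± 0.26 in wild type (SD, n = 4). It was the only member under the 0.25 quantile of mean levels in each tissue, so 11 of the 12 would pass such a filter.

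**Figure D2:**
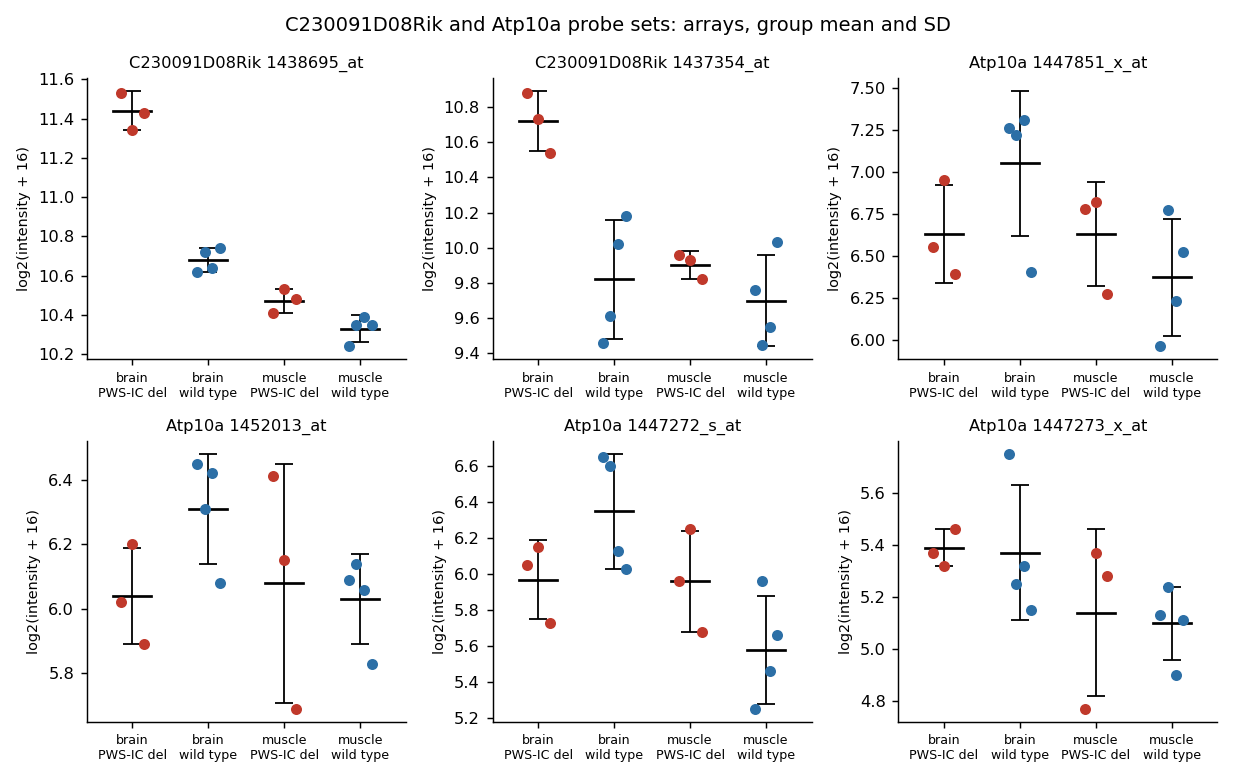
Levels of the 2 C230091D08Rik and 4 Atp10a probe sets, as log2(intensity + 16) on the vertical axes, which do not start at 0. Points are arrays (red PWS-IC del, blue wild type), the long bar is the group mean and the whiskers are 1 SD. In brain 1438695_at lies at 11.34 to 11.53 in PWS-IC del and 10.62 to 10.74 in wild type, and the Atp10a groups overlap.

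Set against all probe sets in brain, 0 of the 12 members passed limma's test, where 0.0622% of probe sets did, all 28 of them lower in PWS-IC del. At an unadjusted p of 0.05, 5 of the 12 members passed, against 2878 probe sets or 6.39% of all. The groups did not overlap for 5 of the 12, all higher in PWS-IC del, against 7.72% of all probe sets in either direction and 3.69% in the higher direction. A difference of at least 0.75 was held by 0.173% of probe sets. The 5 members without overlap reached it, at 0.76 to 0.99, and the cut lies just under the lowest of them. That share is therefore no independent measure of how rare such differences are. The median brain difference was 0.63 over the Ube3a probe sets, -0.33 over those of Atp10a and 0.83 over those of C230091D08Rik, where the median of all probe sets was -0.009. These counts describe the members, which were chosen with earlier results of these data known, and were not tested as sets. The 5 are probe sets of Ube3a and C230091D08Rik alone. Probe sets of 1 gene measure it on the same arrays, so counts out of 12, here and below, are not of independent features.

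The calls in brain differed between settings. When all 14 arrays shared one estimate of the spread in limma, the adjusted p was 0.0273 for Ube3a 1416680_at, 0.0378 for Ube3a 1416681_at and 9.31e-04 for C230091D08Rik 1438695_at, with the same differences. That fit called 39 of 45037 probe sets in brain, 3 higher and 36 lower in PWS-IC del. C230091D08Rik 1438695_at also passed within brain with a pseudocount of 64 (difference 0.74, adjusted p 0.0238), with 1 probe set per gene (0.0445), with a trend of the spread with intensity (0.0251) and with array weights (difference 0.80, adjusted p 0.0316). Over all probe sets these settings called 24, 9, 30 and 31, the 9 among 13645 tested. Leaving out any 1 brain array gave no call, with differences of 0.71 to 0.80 for 1438695_at and 0.68 to 0.86 for 1416680_at.

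**Figure D3:**
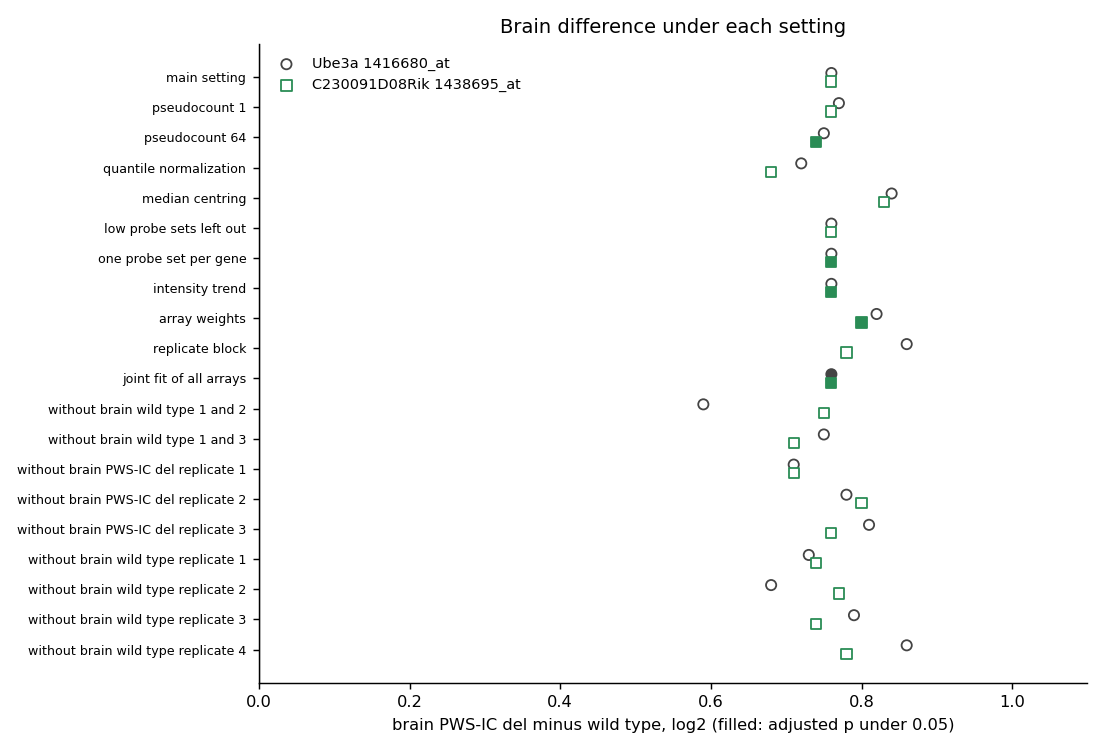
Brain difference, PWS-IC del minus wild type, on the log2(intensity + 16) scale (horizontal axis) under each setting (rows) for Ube3a 1416680_at (circles) and C230091D08Rik 1438695_at (squares). Filled symbols have an adjusted p under 0.05. The differences lie between 0.59 and 0.86 for Ube3a and between 0.68 and 0.83 for C230091D08Rik, and Ube3a is filled only in the joint fit of all arrays.

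In muscle the 95% interval of every member's difference reached across 0. Ube3a 1416680_at read 11.73, 11.67 and 11.64 in PWS-IC del muscles, against 11.64, 11.43, 11.50 and 11.42 in wild-type muscles. The groups met at their edges. The difference was 0.18 (SE 0.09, 95% interval -0.03 to 0.4), or 1.14-fold, with an adjusted p of 0.542 in limma and an exact permutation p of 0.0857. Ube3a 1416681_at read 8.40, 8.26 and 8.05 in PWS-IC del muscles, against 8.26, 8.18, 8.27 and 8.18 in wild-type muscles, a difference of 0.02 (SE 0.10, 95% interval -0.22 to 0.26). Ube3a 1425206_a_at had the largest muscle difference of the members, 0.45 (SE 0.27, adjusted p 0.606 in limma), which was 0.71 without muscle wild type 4 and 0.29 without muscle wild type 2. It read 8.54, 8.40 and 8.04 in PWS-IC del muscles, against 7.86, 7.39, 7.60 and 8.63 in wild-type muscles, where wild type 4 was the highest of all 7. The other 3 Ube3a probe sets differed by -0.26, -0.14 and 0.11.

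C230091D08Rik 1438695_at was the member whose muscle groups did not overlap. It read 10.41, 10.53 and 10.48 in PWS-IC del muscles, against 10.24, 10.35, 10.39 and 10.35 in wild-type muscles. The difference was 0.14 (95% interval -0.06 to 0.34, adjusted p 0.622 in limma, exact permutation p 0.0286), or 1.1-fold. C230091D08Rik 1437354_at averaged 9.90 ± 0.08 in PWS-IC del (SD, n = 3) and 9.70 ± 0.26 in wild type (SD, n = 4), and its groups overlapped. The 4 Atp10a probe sets had differences of 0.04 to 0.38, with overlapping groups. Over all members 0 of 12 passed limma's test in muscle, against 0.0644% of probe sets, and 0 of 12 passed at an unadjusted p of 0.05, against 4657 or 10.3% of all. Groups that did not overlap were found for 1 of 12 members, against 10.6% of all probe sets in either direction and 4.59% in the higher direction.

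The difference between the tissues was tested directly, as the brain difference minus the muscle difference in a fit of all 4 groups. It was 0.58 for Ube3a 1416680_at (95% interval 0.21 to 0.95, adjusted p 0.716 in limma), 0.93 for Ube3a 1416681_at (0.45 to 1.42, adjusted p 0.492) and 0.62 for C230091D08Rik 1438695_at (0.35 to 0.89, adjusted p 0.22). For Atp10a all 4 values were negative, between -0.76 and -0.03. None of the 12 members passed after adjustment, where 0.0644% of probe sets did, and 6 of 12 passed at an unadjusted p of 0.05, where 5.49% of probe sets did. C230091D08Rik 1438695_at passed with a pseudocount of 64 and with a trend of the spread with intensity.

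**Figure D4:**
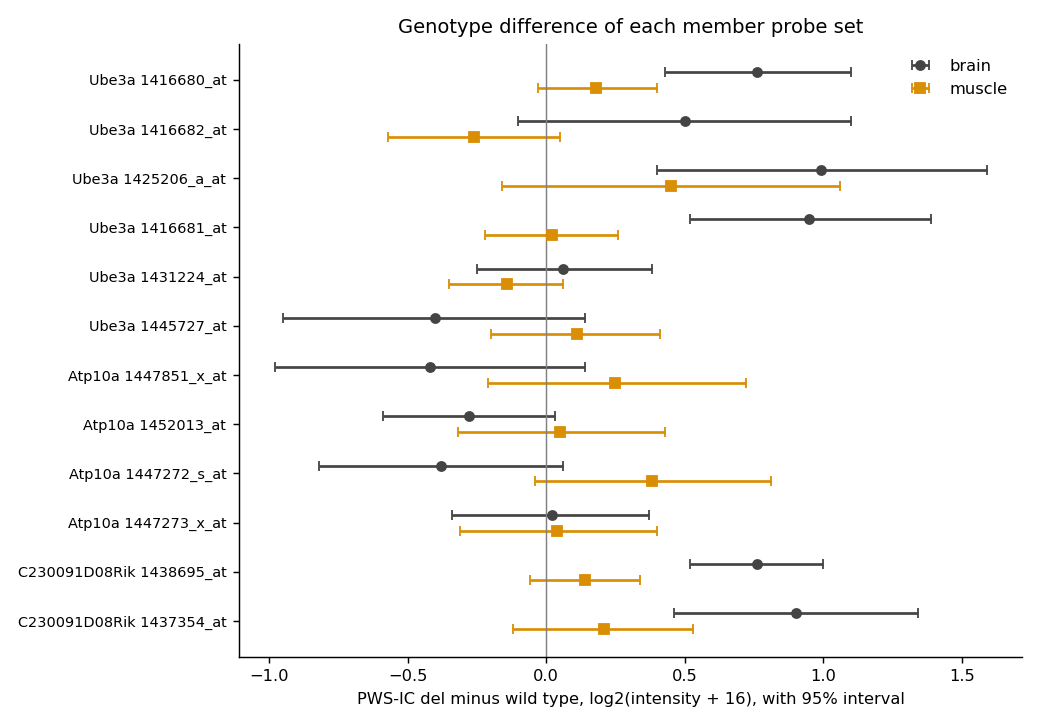
Genotype difference, PWS-IC del minus wild type, of each member probe set on the log2(intensity + 16) scale, in brain (dark circles) and muscle (orange squares). Lines are 95% intervals from limma, not adjusted for the number of probe sets. The brain intervals of Ube3a 1416680_at, 1416681_at and 1425206_a_at and of both C230091D08Rik probe sets lie above 0, and every muscle interval reaches across 0.

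The order of the 4 groups differed between probe sets. It is given on the deposited scaling, and where it sets brain against muscle another scaling can change it. For Ube3a 1416680_at it was PWS-IC del brain at 12.35, PWS-IC del muscle at 11.68, wild-type brain at 11.58 and wild-type muscle at 11.50. The first step was larger than the spread with no overlap, and the lower 3 groups overlapped with their neighbours. C230091D08Rik 1438695_at had no overlap between any neighbours, from PWS-IC del brain at 11.44 through wild-type brain at 10.68 and PWS-IC del muscle at 10.47 to wild-type muscle at 10.33. After quantile normalization and after median centring, wild-type brain lay below wild-type muscle for both, at -0.32 and -0.59 for Ube3a 1416680_at and at -0.31 and -0.33 for C230091D08Rik 1438695_at. Over all alternatives wild-type brain stayed above wild-type muscle for Ube3a 1416682_at and Atp10a 1447272_s_at, by at least 0.14 and 0.10. For Ube3a 1416681_at wild-type brain stayed below. Neighbouring groups of all 4 Atp10a probe sets overlapped.

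In wild-type mice, brain over muscle, 6 of the 12 members passed limma's test. As deposited all 6 were higher in brain, a direction that turned under another scaling for Ube3a 1431224_at and 1445727_at, Atp10a 1447851_x_at and C230091D08Rik 1438695_at. The 6 were Ube3a 1416682_at (0.98, adjusted p 6.56e-04), 1431224_at (0.50, adjusted p 6.44e-04) and 1445727_at (0.63, adjusted p 0.00867), Atp10a 1447272_s_at (0.77, adjusted p 0.00204) and 1447851_x_at (0.67, adjusted p 0.0157), and C230091D08Rik 1438695_at (0.34, adjusted p 0.00171). The background was higher than 6 of 12, with 70.7% of probe sets called, 54.8% higher in brain and 15.9% lower, around a median difference of 0.432. That background depended on scaling. As deposited, 24668 probe sets were higher and 7169 lower in brain, against 12719 higher and 16805 lower after quantile normalization and 11659 higher and 19812 lower after median centring, where the median differences were -0.11 and -0.24. C230091D08Rik 1438695_at was then lower in wild-type brain, at -0.31 (adjusted p 0.00575 in limma) and -0.33 (adjusted p 0.00635). Ube3a 1416680_at, at 0.09 as deposited, was at -0.32 and -0.59. Ube3a 1416682_at and 1445727_at and Atp10a 1447272_s_at and 1447851_x_at lay above the median of all probe sets under all 3 scalings, and the other members did not.

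How the members varied together was described array by array. Over the 7 brain arrays Ube3a 1416680_at had a Pearson r of 0.96 with Ube3a 1416681_at, 0.94 with 1425206_a_at, 0.98 with C230091D08Rik 1437354_at and 0.93 with C230091D08Rik 1438695_at. After each group's mean was removed these were 0.80, 0.82, 0.89 and 0.33. With Ube3a 1416682_at, 1431224_at and 1445727_at the r was 0.71, -0.04 and -0.58. After group means were removed it was 0.56, -0.62 and -0.26, so not all Ube3a probe sets varied together. With Atp10a the r was -0.77 to -0.12 before group means were removed. These are descriptions over 7 arrays that share a normalization and the 2 arrays that stood apart, and they carry no test.

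Snhg14, the antisense transcript, was lower in the same PWS-IC del brains. Its probe set 1436964_at read 8.25, 8.29 and 7.71 in PWS-IC del brains, against 12.01, 11.26, 11.93 and 11.66 in wild-type brains, and fell by 3.63 (SE 0.22, adjusted p 3.6e-04 in limma). Snhg14 1455087_at averaged 5.82 in PWS-IC del brains and 8.49 in wild-type brains, a difference of -2.66 (adjusted p 0.068 in limma). In muscle Snhg14 1436964_at fell by 2.20 (adjusted p 1.23e-04 in limma), and 1455087_at fell by 2.00 (adjusted p 7.92e-05). The third Snhg14 probe set, 1445296_at, differed by -1.93 in brain (adjusted p 0.373 in limma) and by -0.37 in muscle (adjusted p 0.654), where its groups overlapped. C230091D08Rik, which RefSeq lists as a synonym of Snhg14, thus had positive differences where the probe sets annotated as Snhg14 had negative ones. Snhg14 1455087_at had an r of -0.77 with Ube3a 1416680_at over the 7 brain arrays and of 0.71 after group means were removed. In wild-type brains 1 to 4 Ube3a 1416680_at read 11.48, 11.33, 11.65 and 11.87 and Snhg14 1455087_at 7.91, 7.97, 9.10 and 8.97, so wild type 3 and 4 lay above wild type 1 and 2 in both. That was not so for Snhg14 1436964_at, in which wild type 1 was the highest, and whose r with Ube3a was -0.88 and, after group means were removed, 0.42.

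**Figure D5:**
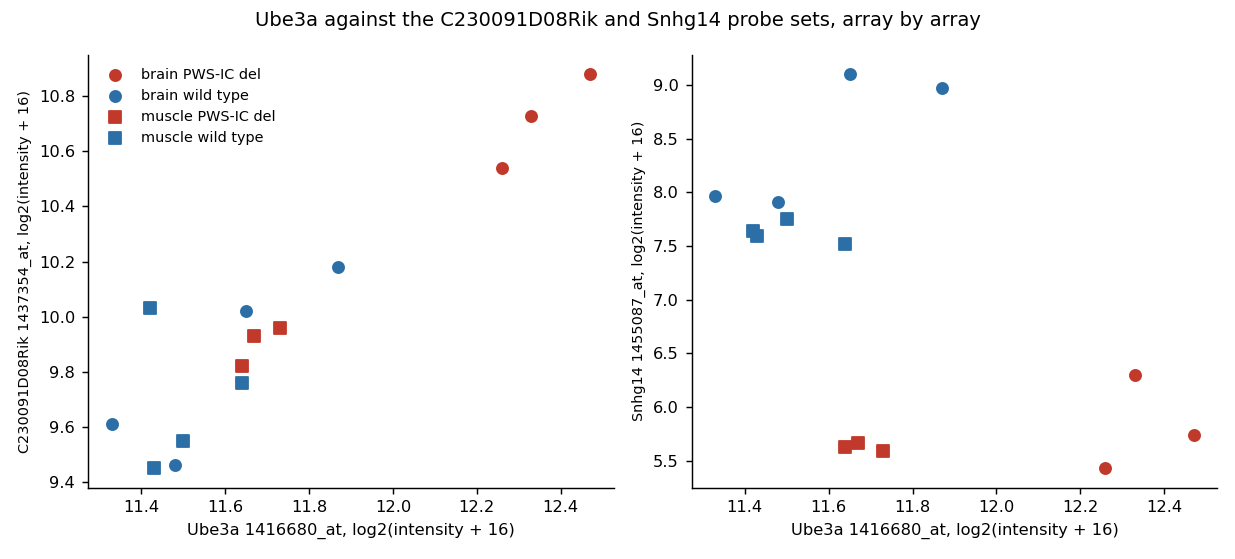
Ube3a 1416680_at (horizontal axes) against C230091D08Rik 1437354_at (left) and Snhg14 1455087_at (right), all as log2(intensity + 16), for each of the 14 arrays. Circles are brains and squares muscles, red PWS-IC del and blue wild type. PWS-IC del brains hold the highest Ube3a values, 12.26 to 12.47, with C230091D08Rik at 10.54 to 10.88 and Snhg14 at 5.43 to 6.30.

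Genes related to the members by function were read from lists, each gene by its brightest probe set. Of 23 measured HECT ligases, the enzyme class of Ube3a, 0 passed in brain, with a median difference of 0.02. The smallest p values were those of the ligases Itch (0.36, SE 0.14, adjusted p 0.644 in limma), Hecw1 (0.22) and Smurf2 (0.19). Of 8 measured partners of Ube3a, 0 passed, with a median of 0.04. Neurl4, which binds Herc2, differed by -0.12, and the ubiquitin-conjugating enzymes Ube2d3 and Ube2d1 by 0.11 and 0.10. All 9 measured proposed substrates of the ligase had positive differences, with a median of 0.15, and 0 passed. Over all 18193 genes read in the same way, 55.1% of brain differences were positive and the median was 0.027. They included Kcnn2, a calcium-activated potassium channel (0.48, SE 0.17, adjusted p 0.644 in limma), Rnf2, a Polycomb ubiquitin ligase (0.26), and Cdkn1b, an inhibitor of cell cycle kinases (0.29). These are RNA levels, and protein was not measured. In muscle 0 genes of these 3 lists passed.

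Of 14 measured P4-ATPases and their chaperones, the family of Atp10a, 0 passed in either tissue. The median brain difference was -0.07. Tmem30b, a chaperone subunit of flippases, differed by 0.31, and the flippases Atp8b1 and Atp8b3 by -0.24 and -0.21. Of 9 measured neighbours in the domain, 4 fell in PWS-IC del brain, Snhg14 among them. Snrpn, a component of splicing particles, fell by 4.87 (adjusted p 4.39e-04 in limma). Ndn, a MAGE family protein, fell by 4.13 (adjusted p 6.39e-04), and Mkrn3, a zinc finger ubiquitin ligase, fell by 1.54 (adjusted p 0.00202). Mkrn3 averaged 4.04 in PWS-IC del brains, where an intensity of 0 reads 4, so its size is set by the pseudocount. Over the alternatives it lay between -4.63 and -0.57, and 3 of 17 lost the call. Magel2, another MAGE gene, differed by -1.95 (adjusted p 0.0786 in limma). In muscle 2 of the 9 fell, Snhg14 and Ndn. On the side of the domain that lies beyond Ube3a, Gabra5 and Gabrg3, subunits of GABA receptors, and Oca2, a melanosome protein, differed in brain by 0.17, -0.39 and -0.42, and Herc2, a giant HECT ligase, by 0.01. None of these passed.

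The probe sets of other genes whose pattern over the 7 brain arrays was most like each member's brightest probe set were found among 27840. For Ube3a 1416680_at they were Zfp944 (Pearson r 0.987), Med13 (0.986) and Dbr1 (0.978), with brain differences of 0.43, 0.24 and 0.39. For C230091D08Rik 1438695_at they were Pou3f3 (0.987), Spopl (0.981) and Prdm8 (0.978), with differences of 0.35, 0.34 and 0.68. For Atp10a 1447851_x_at they were Ankrd11 (0.986), Cstf2 (0.984) and 4930519G04Rik (0.977), with differences of -0.07, -0.14 and -0.24. None of the 9 passed limma's test in brain. High values of r are to be found by search among so many probe sets, and the values describe these arrays alone.

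Markers of other cell types varied between the brain arrays beside these results, and their summed intensities overlapped between the genotypes in every list below. None of 7 skeletal muscle markers was higher in PWS-IC del brains, with summed intensities of 690 to 1051 in PWS-IC del and 930 to 9013 in wild type. None of 5 endothelium markers was higher, with sums of 1224 to 1397 in PWS-IC del and 1329 to 2283 in wild type. None of 5 striatal neuron markers was higher, with sums of 3044 to 6766 in PWS-IC del and 3026 to 14977 in wild type. All 4 choroid plexus markers had positive differences, with sums of 8758 to 15970 in PWS-IC del and 3871 to 16505 in wild type. Of 7 neuron markers 3 had positive differences, with a median of -0.02. Pituitary markers summed to 291 to 403 in PWS-IC del and 260 to 4513 in wild type, and Purkinje cell markers to 6239 to 123680 in PWS-IC del and 5075 to 14235 in wild type. None of these marker genes passed the test. Mean marker levels over the brain arrays had a Pearson r with Ube3a 1416680_at of -0.88 for endothelium and -0.61 for skeletal muscle. It was -0.5 for striatal neuron, -0.37 for neuron, -0.18 for pituitary, 0.29 for Purkinje cell and 0.46 for choroid plexus. The part of these markers in the brain differences of Ube3a, Atp10a and C230091D08Rik was not tested. Brain wild type 1 and 2 had the highest endothelium levels, 8.52 and 8.60. Without them Ube3a 1416680_at differed by 0.59 and C230091D08Rik 1438695_at by 0.75. Without brain wild type 1 and 3, which were high in muscle markers, Ube3a 1416680_at differed by 0.75 and C230091D08Rik 1438695_at by 0.71, against 0.76 each with them. Without the same arrays Ube3a 1445727_at was at -0.11, Atp10a 1447851_x_at at -0.18 and Atp10a 1452013_at at -0.16, against -0.40, -0.42 and -0.28 with them. Atp10a 1447272_s_at, also negative, was at -0.34 without them and -0.38 with them.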

How the data were processed

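RNA from brain and vastus lateralis of PWS-IC del and wild-type mice was measured on 1-colour Affymetrix arrays. The authors deposited linear intensities, one per probe set and array, made with PLIER and the Affymetrix Expression Console, per the submitters' processing notes. Versions, background correction and normalization were not stated there and could move the comparison of brain with muscle most. The 64 control probe sets were left out, no filter on low values was used, and log2(intensity + 16) was taken.

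Groups came from the sample titles. Per tissue, PWS-IC del was set against wild type with limma 3.58.1 in R 4.3.3 (lmFit, eBayes, two-sided, Benjamini-Hochberg over 45037 probe sets, threshold 0.05). The difference between tissues and the wild-type tissue contrast came from a fit of all 4 groups. Exact permutation tests enumerated all 35 splits. The fit was run on simulated data with independent noise as a check of the code. No result of that check is used here. Gene names came from the platform annotation and positions and promoters from RefSeq GRCm38.p6.

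All member probe sets were named. From each list the text names the genes past the threshold, or otherwise the 3 with the smallest p in brain, and for each member the 3 most like patterns. Magel2, Gabra5, Gabrg3, Oca2 and Herc2 were named beside them after their values were seen. Members and lists were chosen with earlier results of these data known. Alternatives were other pseudocounts, quantile normalization, median centring, a filter at the 0.25 quantile, 1 probe set per gene, an intensity trend, array weights, a replicate block, a joint fit, and leaving out arrays.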

Additional observations from a re-analysis of the deposited data

Results flagged for a closer look

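Of 24 groups of 4 arrays examined for members, 2 held an array far from the other 3, by a test that chance meets in about 1 in 20 groups. Atp10a 1447851_x_at read 6.40 in brain wild type 4, the lowest of the 4 wild-type brains, with a gap of 0.82 to the next that took 0.898 of the group's range. Ube3a 1431224_at read 7.57 in muscle wild type 2, the lowest of the 4 wild-type muscles, with a gap of 0.09 that took 0.988 of a narrow range.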

How the results depend on the processing

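Over 48 member results and 990 alternatives, 922 kept their direction and side of the threshold, 10 lost and 17 gained a call, and 41 changed sign. In brain, Ube3a 1416680_at was called in the joint fit (0.76), and C230091D08Rik 1438695_at there (0.76), with pseudocount 64 (0.74), 1 probe set per gene (0.76), intensity trend (0.76) and array weights (0.80). Members called in brain were 3 of the 39 probe sets called in the joint fit, and 1 in each of the other 4. For the difference between tissues, 1 member was called with pseudocount 64 and 1 with intensity trend, and for wild-type brain over muscle 2 with 1 probe set per gene. Over all probe sets, calls in brain (28) became 9 with 1 probe set per gene and 11 with the replicate block. In muscle (29) they became 57 with pseudocount 64, 48 with the low filter, 16 with 1 probe set per gene, 78 with intensity trend, 190 with array weights, 11 with the replicate block, and 15 to 22 leaving out 1 array. The tissue difference (29) became 19 with pseudocount 1 and 12 with 1 probe set per gene, and the wild-type contrast (31837) became 11354 with 1 probe set per gene, which tests fewer.

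Called domain neighbours fell to 1 in brain and 1 in muscle with the replicate block, and to 1 in muscle in the joint fit, alternatives chosen after seeing the data. So was the exact permutation test after median centring, in which 2 member probe sets in brain, rather than 4, reached the smallest p. Replicate numbers were not taken to pair the samples, since no label says so. Same-number arrays of the 2 genotypes correlated at -0.309 to 0.006 in brain and 0.005 to 0.303 in muscle, and 1 of 6 such pairs correlated best with its own number. Same-number brain and muscle arrays correlated at -0.003 to 0.168, and 5 of 7 correlated best with their own number. Whether they share a mouse was left unsettled by correlations this low. If they do, the joint fit and the test of the tissue difference ignore a pairing, as both treat the arrays as separate. The block called 0 members in either tissue.

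Signs changed for small differences. With the replicate block they were -0.03 for Ube3a 1431224_at and -0.06 for Atp10a 1447273_x_at in brain, and -0.01 for Atp10a 1452013_at in muscle. Leaving out 1 array gave -0.03 to 0.13 and -0.06 to 0.14 for the same brain probe sets. In muscle it gave -0.06 to 0.11 for Ube3a 1416681_at, -0.11 to 0.25 for Atp10a 1452013_at and -0.07 to 0.23 for Atp10a 1447273_x_at. The tissue difference of Atp10a 1447273_x_at was 0.03 after quantile normalization, 0.01 after median centring, 0.11 without brain wild type 1 and 2, 0.14 without 1 and 3, and -0.21 to 0.10 leaving out 1 array. Without brain wild type 1 and 2, Neurl4 was at 0.01 and Ube2d1 at -0.01 in brain.

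For wild-type brain over muscle, the values after quantile normalization and after median centring were -0.32 and -0.59 for Ube3a 1416680_at, -0.36 and -0.21 for 1425206_a_at, -0.29 and -0.18 for 1431224_at, and -0.05 and -0.05 for 1445727_at. For Atp10a they were -0.26 and -0.39 for 1452013_at and -0.12 and -0.40 for 1447273_x_at, and 1447851_x_at was at -0.0011 after median centring. For C230091D08Rik they were -0.31 and -0.33 for 1438695_at and -0.64 and -0.55 for 1437354_at. Leaving out 1 array gave -0.01 to 0.17 for Ube3a 1416680_at. Median centring moves all probe sets of an array by the same amount, and it moved the median difference of all probe sets from 0.432 to -0.24. Why brain and muscle arrays differ in median intensity was not tested.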
